A study of Mus musculus with 8 samples.

Results

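The radiation effect shared by both miR-21 genotypes was taken as the set of genes whose 4 arrays of irradiated mammary tumors all lay on one side of the 4 arrays of untreated tumors, whatever the genotype. Of 23152 genes measured, 1094 were separated in this way (4.73%), of which 456 lay higher in the irradiated tumors (1.97%) and 638 lay lower (2.76%). The tumors came from female MMTV-PyMT mice, in which a mouse mammary tumor virus promoter drives the polyomavirus middle T antigen in mammary epithelium, so all 4 groups carried this transgene. The miR-21+/+ mice kept both copies of the microRNA gene, and the miR-21-/- mice lacked it in all cells, stroma included. The 4 untreated and 4 irradiated samples were primary tumors of the mammary fat pad, with 2 arrays for each combination of genotype and treatment. By the labels the dose was 8 Gy, given at a tumor volume of 1000 mm3 and followed by growth to 2000 mm3, within a follow-up of up to 18 weeks. The study's own methods give another dose, and a legend places collection a day after irradiation, so neither the dose nor the interval is settled. The age at collection is not given in the sources used here, and the labels name no strain beyond MMTV-PyMT. For the untreated tumors the labels give no volume, so tumor size and treatment cannot be told apart.

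Ionizing radiation breaks DNA, and cells answer through the kinases ATM and ATR, which stop the cell cycle and stabilize p53. p53 switches on its target genes, among them the cell cycle inhibitor Cdkn1a, and cells that are held back or lost lower the output of the genes used for DNA replication and mitosis. Mammary tumors of the MMTV-PyMT model are luminal, and their cells can keep or regain parts of the milk secretion program. A bulk tumor holds epithelium, stroma, fat and immune cells, and fewer cells of a type cannot be told apart from less RNA per cell.

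Levels are log2 signals, on which a difference of 1 is a fold of 2, and a gene was given the mean over all probe sets that carry its symbol alone. The median gene lay at 5.08 to 5.16 on the 8 arrays. Irradiated miR-21-/- replicate 1 stood apart. Its correlation with any other array, taken over genes, was 0.898 to 0.915, and the other 21 pairs gave 0.955 to 0.987. The mean level of 16 measured adipocyte markers was 10.17 on this array and 4.68 to 5.25 on the other 7. The probe set shared by Mir21 and Vmp1 was dim, at 2.34 to 3.08 in the miR-21+/+ tumors and 1.69 to 2.02 in the miR-21-/- tumors, so the genotypes did not overlap there (p = 0.0286 in a two-sided exact permutation test, which cannot give less with 4 against 4). Neither the labels nor the methods say that each array is a separate mouse, so the spread behind each p-value may be partly technical.

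The separated genes differed mostly by modest amounts. Among the 456 higher genes the median log2 difference was 0.49 and 71 reached a fold of 2, and among the 638 lower genes the median was -0.43 and 59 reached a fold of 2. The gap between the nearest irradiated and untreated arrays was at least 1 for only 2 of the higher genes, Csn2 and Il1rl2, and for 9 of the lower genes. Of the lower genes 71.2% lay above the median level of all genes, compared with 57.5% of the higher genes. The irradiated miR-21-/- array that stood apart was the one farthest from the untreated arrays for 194 of the higher and 339 of the lower genes. Without it, the counts of separated genes were 875 (3.78%) and 976 (4.22%). Separation is easier to reach with fewer arrays, and leaving out any 1 array gave 679 to 902 higher and 924 to 1261 lower genes. Centring each array on its median moved the split to 355 higher and 805 lower.

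When each gene was tested with limma with genotype as a covariate, 14 genes passed an adjusted p of 0.05 (0.0605%), 7 higher and 7 lower (0.0302% each). At the study's own thresholds, an unadjusted p under 0.05 together with a fold of 2 in either direction, 118 genes were higher (0.510%) and 114 lower (0.492%). Non-overlap and this test use the same values, so neither supports the other. Without irradiated miR-21-/- replicate 1, 68 genes were higher and 60 lower at the adjusted threshold, all 14 among them, and without either untreated miR-21-/- array no gene passed, with 1826 and 1721 genes at an unadjusted p under 0.05.

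The effects of the 2 genotypes, which share no arrays, were only weakly alike across all genes (Pearson's r = 0.0929, Spearman's rho = 0.0821, n = 23152 genes, which are not independent). With the miR-21-/- effect taken from irradiated replicate 1 alone, the array that stood apart, Pearson's r was 0.048. From irradiated replicate 2 alone it was 0.138. At the study's thresholds 268 genes were higher and 218 lower in the miR-21+/+ tumors (1.16% and 0.942%), and 394 were higher and 309 lower in the miR-21-/- tumors (1.70% and 1.33%). Called higher in both were 23 genes, or 8.58% of the first list and 5.84% of the second, and called lower in both were 29 genes, or 13.3% and 9.39%. Another 32 genes were called in opposite directions. Of the genes called higher in the miR-21+/+ tumors, 134 of 268 also had a positive difference in the miR-21-/- tumors, where 45.1% of all genes did. Of those called lower, 145 of 218 (66.5%) also had a negative one, where 54.9% of all genes did. At an adjusted p of 0.05 within a genotype, 49 genes passed in the miR-21+/+ tumors (0.212%) and 3 in the miR-21-/- tumors (0.0130%). A difference between the genotypes' effects passed for 1 gene of all (0.00432%), which was not separated. Of the higher genes 7.02% and of the lower genes 5.33% had an unadjusted p under 0.05 for it, against 8.03% of all genes. Separation requires the same direction in both genotypes, so these shares cannot test whether the effect is shared.

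**Figure D1:**
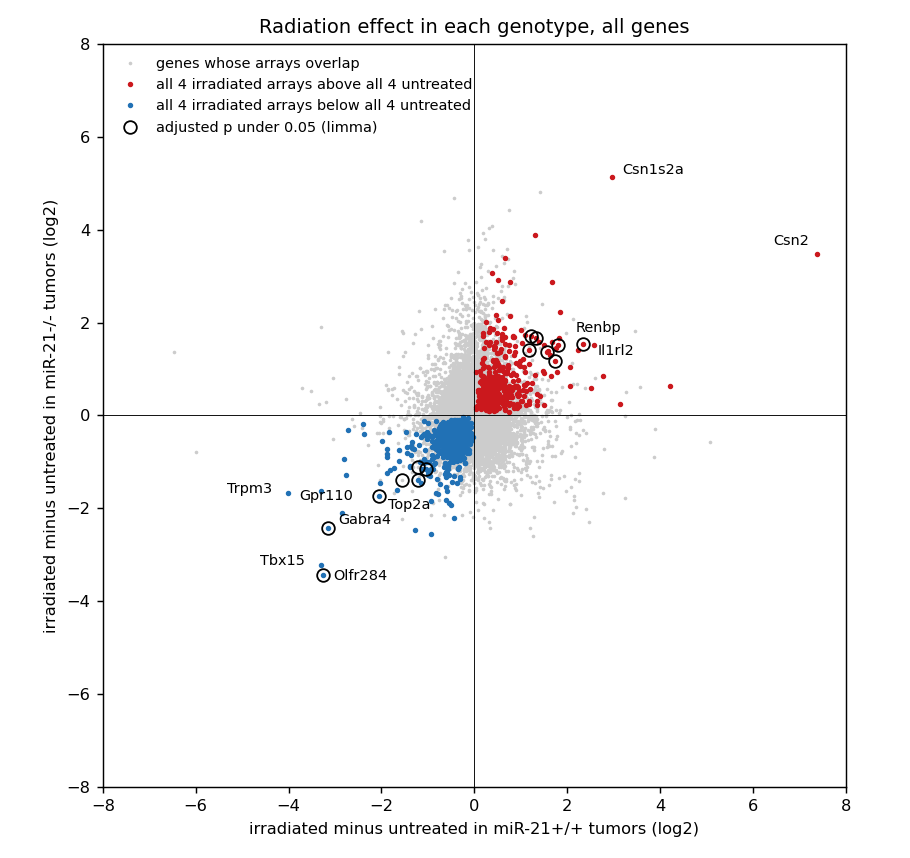
Difference between irradiated and untreated tumors (log2) in the miR-21+/+ tumors (horizontal axis) and in the miR-21-/- tumors (vertical axis) for 23152 genes. Separated genes are coloured, the 14 genes past an adjusted p of 0.05 are circled, and the cloud of the other genes has no clear tilt (Pearson's r = 0.0929 over all genes).

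The 14 genes that passed the adjusted threshold included receptor and cell cycle genes on the lower side, and a chemokine, a cytokine receptor and a sugar epimerase on the higher side. Gabra4, a subunit of the GABA type A receptor, stood at 7.17, 6.70, 7.01 and 7.26 in the untreated tumors and at 4.02, 3.54, 4.69 and 4.73 in the irradiated tumors (in each group the 2 miR-21+/+ arrays first, then the 2 miR-21-/- arrays, an order kept below). All irradiated arrays lay at least 1.97 below the nearest untreated array, the widest gap of any named gene. The log2 difference was -2.79 ± 0.20 (SE, 4 against 4 arrays), with an adjusted p of 0.00567 from limma.

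Olfr284, an odorant receptor gene read by 1 probe set, stood at 8.75, 8.56, 7.81 and 7.79 in the untreated tumors and at 4.74, 6.04, 4.25 and 4.49 after irradiation. It fell by 3.35 on the log2 scale (limma, adjusted p = 0.00567), in both genotypes by similar amounts, -3.26 and -3.43. Odorant receptor genes form a large family of similar sequences, and with 1 probe set the signal cannot be set against a second one. Gpr110, an adhesion G protein-coupled receptor, was at 6.98, 6.55, 6.61 and 6.82 in the untreated tumors and at 4.70, 4.73, 4.64 and 5.30 in the irradiated ones. It fell by 1.90 on the log2 scale (limma, adjusted p = 0.0215), and 18 of its 19 probe sets were lower. Glt1d1, a gene with a glycosyltransferase domain, was dim, with 4.90, 4.76, 5.07 and 4.95 in the untreated and 3.60, 3.62, 3.36 and 3.89 in the irradiated tumors (limma, adjusted p = 0.0263). Its brightest probe set gave only -0.22 (limma, adjusted p = 0.912). Here and below, the p-value of a brightest probe set was adjusted over all 233753 probe sets, not over genes.

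Renbp, the renin binding protein that interconverts N-acetylglucosamine and N-acetylmannosamine, had the smallest p among the higher genes. Its level was 4.82, 4.76, 4.2 and 4.27 in the untreated tumors and 6.73, 6.45, 5.82 and 5.68 in the irradiated tumors. Replicates lay close together in each of the 4 groups, and the miR-21-/- arrays were lower than the miR-21+/+ arrays under both treatments. Renbp rose by 1.66 ± 0.13 on the log2 scale (SE, limma, adjusted p = 0.00567), by 1.80 in the miR-21+/+ and 1.52 in the miR-21-/- tumors. Its brightest probe set taken alone gave 0.40 (adjusted p = 0.795, limma), although 12 of its 13 probe sets were higher.

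Il1rl2, the receptor of the interleukin-36 cytokines, was at 4.67, 5.04, 5.12 and 5.02 in the untreated and at 7.50, 6.88, 6.56 and 6.66 in the irradiated tumors. The gap between the groups was 1.45 and all 10 probe sets were higher (log2 difference 1.94 ± 0.21 SE, limma adjusted p = 0.0263), with 1.07 in the brightest one (adjusted p = 0.384). Ccl9, a chemokine of mouse myeloid cells, was at 7.23, 7.49, 6.70 and 6.97 without and at 8.63, 8.53, 8.65 and 8.42 with irradiation. The irradiated arrays of both genotypes lay close together, above all untreated arrays (log2 difference 1.46, limma adjusted p = 0.0261). Sash1, which encodes a scaffold protein with SH3 and SAM domains, rose by 1.46 on the log2 scale with all 23 probe sets higher. Bahcc1, a chromatin protein with a BAH domain, rose by 1.45, although its brightest probe set gave only 0.05. Crybg3, which has crystallin domains, and the predicted gene Gm3255, read by 1 probe set, rose by 1.29 and 1.49. The adjusted p of the last 4 genes lay between 0.0215 and 0.0261 (limma).

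**Figure D2:**
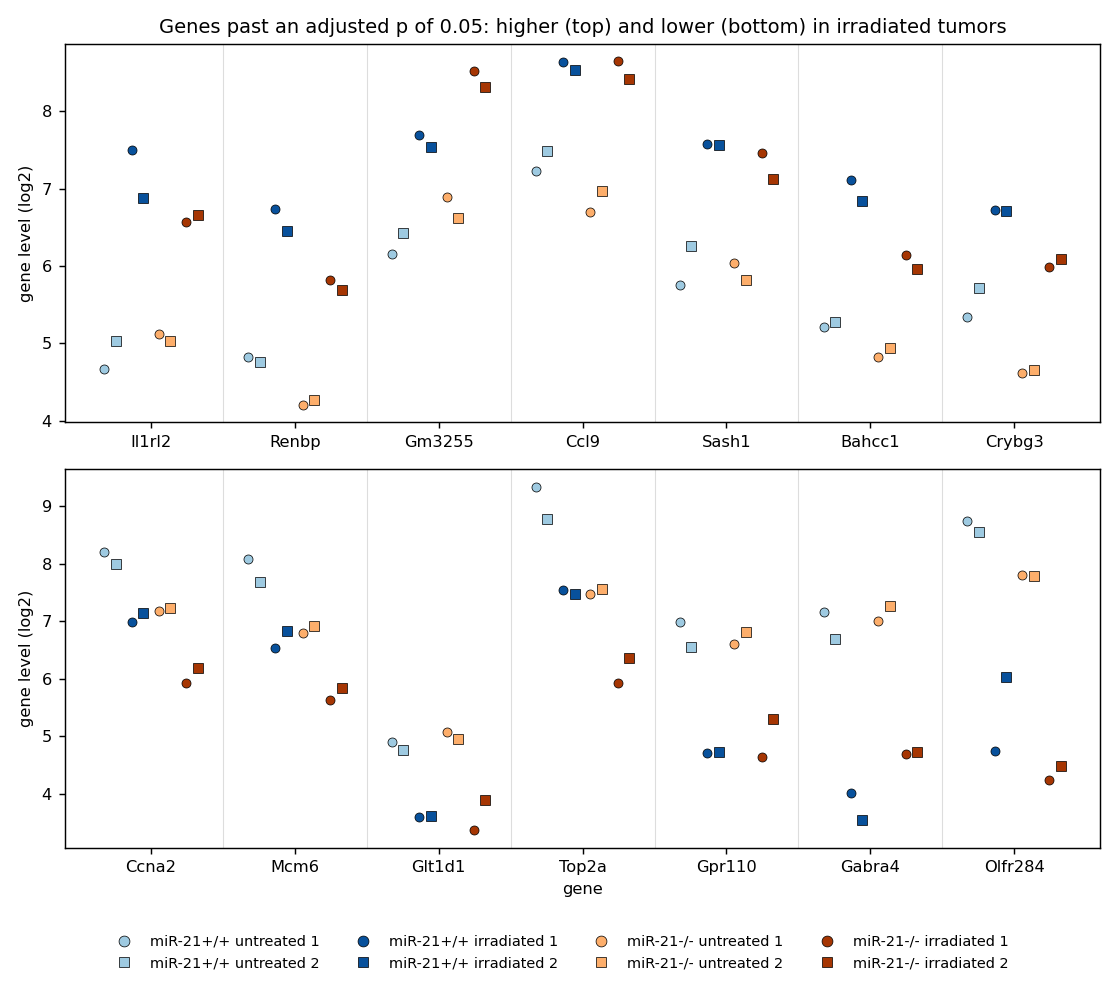
Level (log2) on each of the 8 arrays for the 7 genes that rose (top) and the 7 that fell (bottom) at an adjusted p of 0.05, with colour for genotype and treatment and shape for the replicate. In Top2a and Mcm6 the irradiated miR-21+/+ arrays lie at the level of the untreated miR-21-/- arrays, so that these genes overlap when the genotypes are pooled.

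Genes of the cell cycle were lower after irradiation in both genotypes, from starting levels that differed. Top2a, the topoisomerase that untangles replicated chromosomes, was at 9.35 and 8.77 in the untreated and 7.54 and 7.47 in the irradiated miR-21+/+ tumors. In the miR-21-/- tumors it went from 7.48 and 7.57 to 5.92 and 6.36. Each genotype was thus lower by about the same amount, -1.55 and -1.39, while the pooled groups overlapped by 0.07 because the untreated miR-21-/- tumors lay at the level of the irradiated miR-21+/+ tumors. Top2a fell by 1.47 ± 0.17 on the log2 scale (SE, limma, adjusted p = 0.0275), and all 32 probe sets were lower.

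Mcm6, a subunit of the helicase that opens replication origins, was at 8.09, 7.69, 6.79 and 6.92 in the untreated and at 6.54, 6.83, 5.63 and 5.84 in the irradiated tumors. It showed the same arrangement with an overlap of 0.04, and fell by 1.16 (limma, adjusted p = 0.0443) with all 20 probe sets lower. Ccna2, the cyclin of S phase and G2, stood at 8.21, 7.99, 7.18 and 7.24 in the untreated and at 6.99, 7.15, 5.92 and 6.18 in the irradiated tumors. It was just separated, with a gap of 0.03, and fell by 1.09 (adjusted p = 0.0275, limma).

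The promoters of Top2a and Mcm6 are shown because these genes stand for the mitotic and the replication genes that were lower. Each window holds 250 bases before and 50 after the start site, from RefSeq in build GRCm38.p6, and the capitals mark CCAAT boxes (CCAAT on either strand) and, in Top2a only, the cell cycle homology region motif TTTGAA on either strand. The windows lie at chr11:99024140-99024439 on the minus strand and chr1:128359656-128359955 on the minus strand.
Top2a: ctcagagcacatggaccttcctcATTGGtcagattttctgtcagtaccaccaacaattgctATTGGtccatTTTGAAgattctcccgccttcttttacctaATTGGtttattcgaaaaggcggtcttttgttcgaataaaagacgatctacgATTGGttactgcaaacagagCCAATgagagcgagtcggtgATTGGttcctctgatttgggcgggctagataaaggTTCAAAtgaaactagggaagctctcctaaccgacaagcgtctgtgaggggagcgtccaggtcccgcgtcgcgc
Mcm6: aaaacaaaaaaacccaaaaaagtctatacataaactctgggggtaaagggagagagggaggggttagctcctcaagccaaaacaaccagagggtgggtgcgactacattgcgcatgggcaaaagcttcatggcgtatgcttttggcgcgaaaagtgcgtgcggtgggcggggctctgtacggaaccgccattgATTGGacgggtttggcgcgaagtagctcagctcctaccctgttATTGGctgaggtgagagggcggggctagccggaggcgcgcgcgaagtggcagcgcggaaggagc
The Top2a window held 6 CCAAT boxes and 2 TTTGAA motifs and the Mcm6 window 2 CCAAT boxes, none of them overlapping another of the motifs searched. Of all 32851 promoters, 37.4% held a CCAAT box and 17.9% a TTTGAA. A share over the cell cycle lists or over the separated genes is void, since fewer than 80% of their genes matched a promoter.

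Of 49 measured genes of G2 and mitosis all had a negative log2 difference (52.5% of all genes did), with a median of -0.78, and 46 had an unadjusted p under 0.05, compared with 6.13% of all genes. Only Ccna2 and Smc4, a condensin subunit, were separated over all 8 arrays, but within each genotype both irradiated arrays lay below both untreated arrays for 42 of the 49, against 6.63% of all genes (4.08% were higher in both). The mean level of the list was 7.70 and 7.26 in untreated and 6.73 and 6.65 in irradiated miR-21+/+ tumors, and 6.18 and 6.25 in untreated and 5.44 and 5.53 in irradiated miR-21-/- tumors. The steps with treatment were close in the 2 genotypes, with list medians of -0.80 and -0.73, and the untreated miR-21-/- tumors lay below the irradiated miR-21+/+ tumors.

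DNA replication and S phase genes followed with a median of -0.54 over 44 genes. Of these, 32 had an unadjusted p under 0.05 on the lower side (6.13% of all genes) and none on the higher side, and 30 were lower in both genotypes without overlap (6.63% of all genes). Separated over all arrays were Mcm10, which helps to start replication, E2f1, the transcription factor that turns on S phase genes, and Fen1, the flap nuclease. On the lower side 2.76% of all genes were separated. The 3 genes had log2 differences of -0.80, -0.46 and -0.45 and adjusted p-values of 0.12, 0.278 and 0.293 (limma). None of the 3 passed the threshold.

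Histone genes, most of which are transcribed in S phase, had 5 of 21 measured members separated on the lower side, against 2.76% of all genes. Hist1h2bb stood at 8.34, 7.90, 7.57 and 7.62 in the untreated and at 6.24, 6.55, 6.81 and 6.09 in the irradiated tumors (log2 difference -1.43, limma adjusted p = 0.0662). Hist1h2bh was at 7.64, 6.07, 6.07 and 5.99 against 4.42, 3.69, 5.32 and 4.86 (-1.87, adjusted p = 0.217), where untreated miR-21+/+ replicate 1 was far above the others. The linker histone gene Hist1h1b had a difference of -1.12 with a gap of 0.03. Histone genes are near-identical copies, and their probe sets may share signal.

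**Figure D3:**
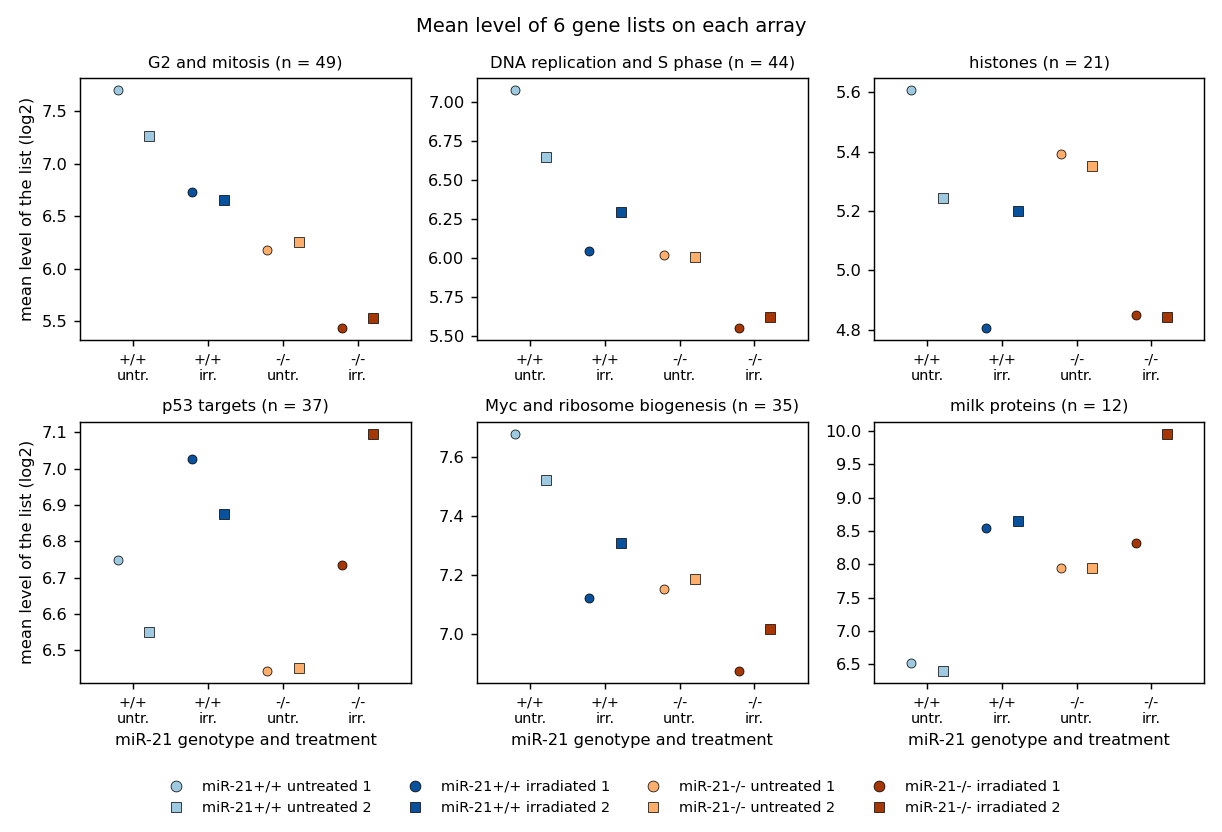
Mean level (log2) of 6 gene lists on each array, by genotype (+/+ or -/-) and treatment (untr., untreated; irr., irradiated). The G2 and mitosis list steps down with irradiation in each genotype, from 7.70 and 7.26 to 6.73 and 6.65 and from 6.18 and 6.25 to 5.44 and 5.53, and the milk protein list is lowest in the untreated miR-21+/+ tumors, at 6.51 and 6.39.

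Genes for making ribosomes and for DNA repair had smaller negative differences. Of 35 genes of Myc and ribosome biogenesis 33 had a negative difference (median -0.30, with 52.5% of all genes negative) and 15 an unadjusted p under 0.05, all lower (6.13% of all genes). Nop16, Rrp1b and Nolc1, nucleolar proteins, were separated (2.76% of all genes on the lower side). Their log2 differences were -0.67, -0.46 and -0.34, with adjusted p-values of 0.195, 0.283 and 0.394 (limma). Of 46 DNA repair genes, 35 had a negative difference (median -0.23), and 17 had an unadjusted p under 0.05, again all lower, against the same shares of all genes. Parp1, which senses DNA strand breaks, was the separated one (2.76% of all genes were separated on the lower side). It stood at 8.18, 7.79, 7.73 and 7.69 in the untreated and 7.13, 7.43, 7.44 and 7.42 in the irradiated tumors. Its irradiated arrays lay close together except replicate 1 of the miR-21+/+ tumors, which was lowest (log2 difference -0.49, limma adjusted p = 0.322).

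The targets of p53 lay on the other side. Of 37 measured targets, 7 were separated on the higher side (1.97% of all genes were) and none on the lower side, 12 had an unadjusted p under 0.05 with a positive difference (3.94% of all genes), and the median was 0.32. Without irradiated miR-21-/- replicate 1 these counts were 10 separated (3.78% of all genes), 18 with an unadjusted p under 0.05 (5.67% of all genes) and a median of 0.36. None of the targets passed the adjusted threshold with all arrays.

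Cdkn1a, the p21 inhibitor of cyclin-dependent kinases, stood at 7.68, 6.52, 7.07 and 7.04 in the untreated and at 8.83, 8.53, 8.11 and 8.77 in the irradiated tumors. The groups were 0.44 apart, and the difference was 1.58 in the miR-21+/+ and 1.39 in the miR-21-/- tumors (1.49 ± 0.26 SE over both, limma adjusted p = 0.101). Ccng1, cyclin G1, was at 9.33, 8.38, 8.79 and 8.56 against 9.72, 9.72, 10.20 and 9.89 (log2 difference 1.12, adjusted p = 0.128). Untreated miR-21+/+ replicate 1 was the highest untreated array for both genes. Eda2r, a receptor of the tumor necrosis factor family, was at 5.59, 4.57, 4.46 and 4.88 against 6.16, 5.75, 6.34 and 6.0 (1.19, adjusted p = 0.168), and that same array was again the highest untreated one. Sesn2, a stress-induced regulator of growth signalling, was at 5.71, 5.40, 5.97 and 5.53 against 6.67, 6.41, 6.84 and 6.99 (1.07, adjusted p = 0.0614, limma). Mdm2, which degrades p53, Rrm2b, a ribonucleotide reductase subunit, and Ephx1, an epoxide hydrolase, made up the 7, and these 3 and Sesn2 were named after their values were seen.

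The Ccng1 promoter is shown as that of a long-known p53 target, at chr11:40755237-40755536 on the minus strand (GRCm38.p6, RefSeq). Capitals mark the match to the p53 half-site, searched on both strands, which 8.36% of all promoters held.
Ccng1: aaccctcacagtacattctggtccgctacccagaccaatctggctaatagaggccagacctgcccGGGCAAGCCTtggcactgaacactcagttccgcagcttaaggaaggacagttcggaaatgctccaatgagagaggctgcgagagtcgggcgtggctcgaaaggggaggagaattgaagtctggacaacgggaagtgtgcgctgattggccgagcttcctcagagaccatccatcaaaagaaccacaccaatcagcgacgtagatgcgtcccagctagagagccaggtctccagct
The window held 1 match, which overlapped none of the other motifs searched, and a match is only a description of the letters.

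Of 41 core apoptosis genes, 1 was separated on the higher side and 1 on the lower side, against 1.97% and 2.76% of all genes. Casp4, an inflammatory caspase, was the higher one, at 6.23, 6.19, 6.22 and 6.38 in the untreated and 6.86, 7.16, 6.82 and 6.99 in the irradiated tumors (log2 difference 0.70, limma adjusted p = 0.112). Htra2, a mitochondrial protease, was separated on the lower side (-0.63, adjusted p = 0.195). The study followed Fas and its ligand after irradiation. Fas was at 4.42 and 4.83 in untreated and 5.29 and 5.36 in irradiated miR-21+/+ tumors, and at 5.97 and 6.14 in untreated and 6.39 and 6.83 in irradiated miR-21-/- tumors. Both genotypes were thus higher after irradiation without overlap, by 0.70 and 0.56, while the pooled groups overlapped because the genotypes started apart (0.63 ± 0.15 SE, limma adjusted p = 0.211). All 11 Fas probe sets were higher, the brightest one by only 0.09. Fasl, Casp8 and Casp9 had log2 differences of 0.20, 0.39 and 0.08 with adjusted p-values of 0.673, 0.601 and 0.879 (limma). Fasl differed by 0.41 in the miR-21+/+ and by -0.01 in the miR-21-/- tumors. For Casp8 these values were -0.07 and 0.85, and for Casp9 0.27 and -0.11. In none of the 3 did the difference between the genotypes' effects pass the test (limma, adjusted p = 0.714, 0.532 and 0.725).

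The separated genes with the largest fitted differences were the casein genes Csn2 and Csn1s2a. Csn2, beta-casein, stood at 2.32, 3.89, 8.93 and 8.77 in the untreated tumors and at 10.78, 10.17, 11.90 and 12.74 in the irradiated tumors. Irradiated arrays lay above all untreated arrays with a gap of 1.24, although the untreated miR-21-/- tumors were far above the untreated miR-21+/+ tumors. The log2 difference was 5.42 ± 0.76 (SE), 7.38 in the miR-21+/+ and 3.47 in the miR-21-/- tumors, and its adjusted p of 0.0598 from limma missed the threshold. The untreated miR-21+/+ arrays read Csn2 at percentiles 5.32 and 26.1 of all genes, where a signal can be mostly background, so the sizes of 5.42 and 7.38 are not exact. Csn1s2a, an alpha-S2 casein, was at 3.23, 3.20, 5.12 and 5.25 against 5.43, 6.92, 9.4 and 11.22 (4.04 ± 0.56 SE, adjusted p = 0.0598). Its groups were 0.18 apart, with the irradiated miR-21-/- arrays highest. Glycam1, a mucin-like milk glycoprotein, was at 3.99, 4.16, 4.53 and 4.60 against 5.22, 5.56, 6.53 and 10.37 (2.60, adjusted p = 0.324), and irradiated miR-21-/- replicate 2 was far above the others, with a difference of 1.57 without it. Without irradiated miR-21-/- replicate 1 the differences of Csn2 and Csn1s2a were 5.98 and 4.19, with adjusted p-values of 0.00923 and 0.0246 (limma), and over all 18 other settings 4 and 6 passed the threshold.

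Of 12 measured milk genes, 4 were separated, all higher (1.97% of all genes), with Xdh, which is needed for the secretion of milk fat, as the remaining one, named after its value was seen. The median over the list was 0.78, and 1.23 without irradiated miR-21-/- replicate 1, when 7 were separated (3.78% of all genes). The promoters of both caseins are shown with the interferon-gamma activated sequence motif TTCNNNGAA in capitals, the motif that STAT5, the mediator of prolactin signals, recognizes. They lie at chr5:87699376-87699675 on the minus strand and chr5:87774200-87774499 on the plus strand (GRCm38.p6, RefSeq).
Csn2: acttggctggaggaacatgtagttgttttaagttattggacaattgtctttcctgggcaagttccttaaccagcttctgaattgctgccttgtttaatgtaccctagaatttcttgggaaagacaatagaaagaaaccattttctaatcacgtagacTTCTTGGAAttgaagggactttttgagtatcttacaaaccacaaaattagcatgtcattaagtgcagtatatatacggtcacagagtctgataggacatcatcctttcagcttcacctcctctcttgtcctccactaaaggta
Csn1s2a: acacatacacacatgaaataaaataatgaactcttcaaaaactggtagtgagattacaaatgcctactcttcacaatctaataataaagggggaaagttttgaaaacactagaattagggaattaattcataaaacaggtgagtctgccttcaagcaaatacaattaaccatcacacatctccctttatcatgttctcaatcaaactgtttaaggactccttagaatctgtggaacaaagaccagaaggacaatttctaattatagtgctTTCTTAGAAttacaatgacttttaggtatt
Each window held 1 match on either strand, with its first base at -93 from the start site in Csn2 and at 21 in Csn1s2a, without overlap with the other motifs searched. The motif stood in 8.30% of all promoters. For the other marker lists of the epithelium, none of 22 luminal genes was separated (median -0.21, and 0.20 without irradiated miR-21-/- replicate 1). The luminal median was 0.39 in the miR-21+/+ and -0.75 in the miR-21-/- tumors. Of these genes, 8 had an unadjusted p under 0.05 for the difference between the genotypes' effects (limma), against 8.03% of all genes. Of 17 basal and myoepithelial genes 2 were separated on the higher side (1.97% of all genes), Krt5 and the cadherin Cdh3 (1.08, named after its value was seen). Krt5, a keratin of basal cells, was at 5.15, 4.53, 5.26 and 4.91 in the untreated and 7.50, 5.85, 5.94 and 8.67 in the irradiated tumors (log2 difference 2.03, limma adjusted p = 0.285). A different replicate was the high one in each genotype, so its spread among the irradiated arrays was wide.

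Among the 15 lowest separated genes, Tbx15, Trpm3, Krt23, Slc38a1, Slc6a15 and Nr1h5 missed the adjusted threshold. Tbx15, a T-box transcription factor of mesenchyme and muscle development, stood at 8.32, 8.16, 9.15 and 9.07 in the untreated and at 4.84, 5.04, 4.70 and 7.06 in the irradiated tumors. Its log2 difference was -3.27 ± 0.42 (SE, limma adjusted p = 0.0558), almost the same in both genotypes, at -3.30 and -3.23. Irradiated miR-21-/- replicate 2 lay between the others and the untreated tumors. That array was also the highest irradiated one for Trpm3, a cation channel gene, at 4.19, 4.11, 4.19 and 5.50 in the irradiated against 8.2, 8.12, 6.43 and 6.59 in the untreated tumors. Trpm3 differed by -2.84 (adjusted p = 0.0985), and 30 of its 31 probe sets were lower, but the brightest one was higher by 0.40.

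Krt23, a keratin gene, was at 7.92, 7.23, 7.61 and 7.40 in the untreated and at 5.06, 4.40, 4.78 and 6.04 in the irradiated tumors (log2 difference -2.47, limma adjusted p = 0.0558). Slc38a1, a transporter of glutamine and other neutral amino acids, was at 9.35, 9.03, 8.94 and 8.91 against 5.83, 5.95, 6.74 and 7.87 (-2.46, adjusted p = 0.067). All 19 of its probe sets were lower, and the difference was larger in the miR-21+/+ tumors, -3.30 against -1.62, although the difference between the genotypes' effects did not pass the test (adjusted p = 0.46). Slc6a15, a further transporter of neutral amino acids, differed more in the miR-21-/- tumors, at -2.56 against -0.93 (-1.75 over both, adjusted p = 0.17), and here too the difference between genotypes had an adjusted p of 0.52.

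Nr1h5, a nuclear receptor of the farnesoid X receptor family, was at 7.46, 6.58, 6.59 and 6.34 in the untreated and at 5.11, 4.88, 5.06 and 4.96 in the irradiated tumors. The irradiated arrays lay close together, and the adjusted p of 0.0505 (limma, log2 difference -1.74) missed the threshold narrowly. Reep1, which shapes the endoplasmic reticulum, and St6galnac2, a sialyltransferase, differed by -1.50 and -1.56 (adjusted p = 0.0584 and 0.164). Rab27a, a GTPase of vesicle secretion, was separated by a gap of 0.09, with irradiated miR-21-/- replicate 2 at 7.84 and the lowest untreated array at 7.93. Uggt2, a glucosyltransferase of glycoprotein folding, differed by -2.38 in the miR-21+/+ and -0.40 in the miR-21-/- tumors (difference between genotypes, adjusted p = 0.18), and its brightest probe set gave -0.10.

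Gas6, Colec12 and Vcam1 were separated on the higher side, and none of them passed the adjusted threshold. Gas6, the ligand of the TAM receptor kinases that bridges dying cells to phagocytes, stood at 7.35, 7.93, 8.06 and 8.32 in the untreated and at 9.74, 8.89, 10.09 and 9.46 in the irradiated tumors. The gap was 0.56 and all 15 probe sets were higher (log2 difference 1.63 ± 0.24 SE, limma adjusted p = 0.0662). Colec12, a scavenger receptor with a collectin domain, was at 6.47, 6.55, 6.51 and 6.63 against 8.56, 8.10, 8.95 and 7.53 (1.75, adjusted p = 0.0835). Vcam1, the adhesion molecule that holds leukocytes, was at 4.61, 4.94, 5.39 and 5.0 against 5.98, 5.74, 7.21 and 6.65 (1.41, adjusted p = 0.0662), with 0.38 in its brightest probe set. That both genotypes were higher after irradiation without overlap in these 3 genes follows from their separation over all arrays.

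Of 26 macrophage markers 23 had a positive difference (median 0.50, with 0.04 in the miR-21+/+ and 0.94 in the miR-21-/- tumors, and 0.35 over both without irradiated miR-21-/- replicate 1). Only Gpnmb, a lysosomal glycoprotein named after its value was seen, was separated (1.97% of all genes on the higher side). It was at 4.15, 4.57, 4.85 and 4.64 in the untreated and 4.88, 5.28, 6.21 and 5.45 in the irradiated tumors. Of the markers, 7 had an unadjusted p under 0.05, all higher (3.94% of all genes). The list's mean level was 5.78 to 6.25 in the untreated tumors and 5.91, 6.37, 6.86 and 6.64 in the irradiated tumors, so its groups overlapped. The part of macrophage numbers in the levels of Gas6, Colec12, Vcam1 and Ccl9 was not tested. All 21 genes of antigen presentation had a positive difference (47.5% of all genes did, list median 0.22), 6 of them with an unadjusted p under 0.05 (3.94% of all genes). H2-Ab1, a chain of the class II molecule, was the separated one (1.97% of all genes on the higher side). It was at 6.20, 7.02, 7.08 and 7.03 against 7.32, 7.95, 7.26 and 7.45 (0.67, limma adjusted p = 0.4).

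None of 47 interferon-stimulated genes was separated, and their medians were 0.40 in the miR-21+/+ and -0.27 in the miR-21-/- tumors. Of 46 measured inflammatory and secretory genes of senescence, Vcam1 and Cdkn1a were separated on the higher side (1.97% of all genes). Cxcl1, a neutrophil chemokine, was separated on the lower side (2.76% of all genes). Cxcl1 was at 7.41 in untreated miR-21+/+ replicate 1 and at 5.25 to 5.42 in the other 3 untreated tumors, against 4.67 to 5.06 in the irradiated tumors, with a difference of -0.96 that was -0.46 without that array. The mean level of the neutrophil markers was also highest on that array, 6.44 against 4.65 to 5.25 on the other 7. The part of neutrophils in Cxcl1 was not tested. Igj, the joining chain of secreted antibodies, was the separated one of 16 B and plasma cell markers, named after its value was seen (1.97% of all genes). Its log2 difference was 1.13 (limma, adjusted p = 0.0662). It was at 2.65 to 2.96 in the untreated and 3.58 to 4.27 in the irradiated tumors, which is dim on both sides.

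**Figure D4:**
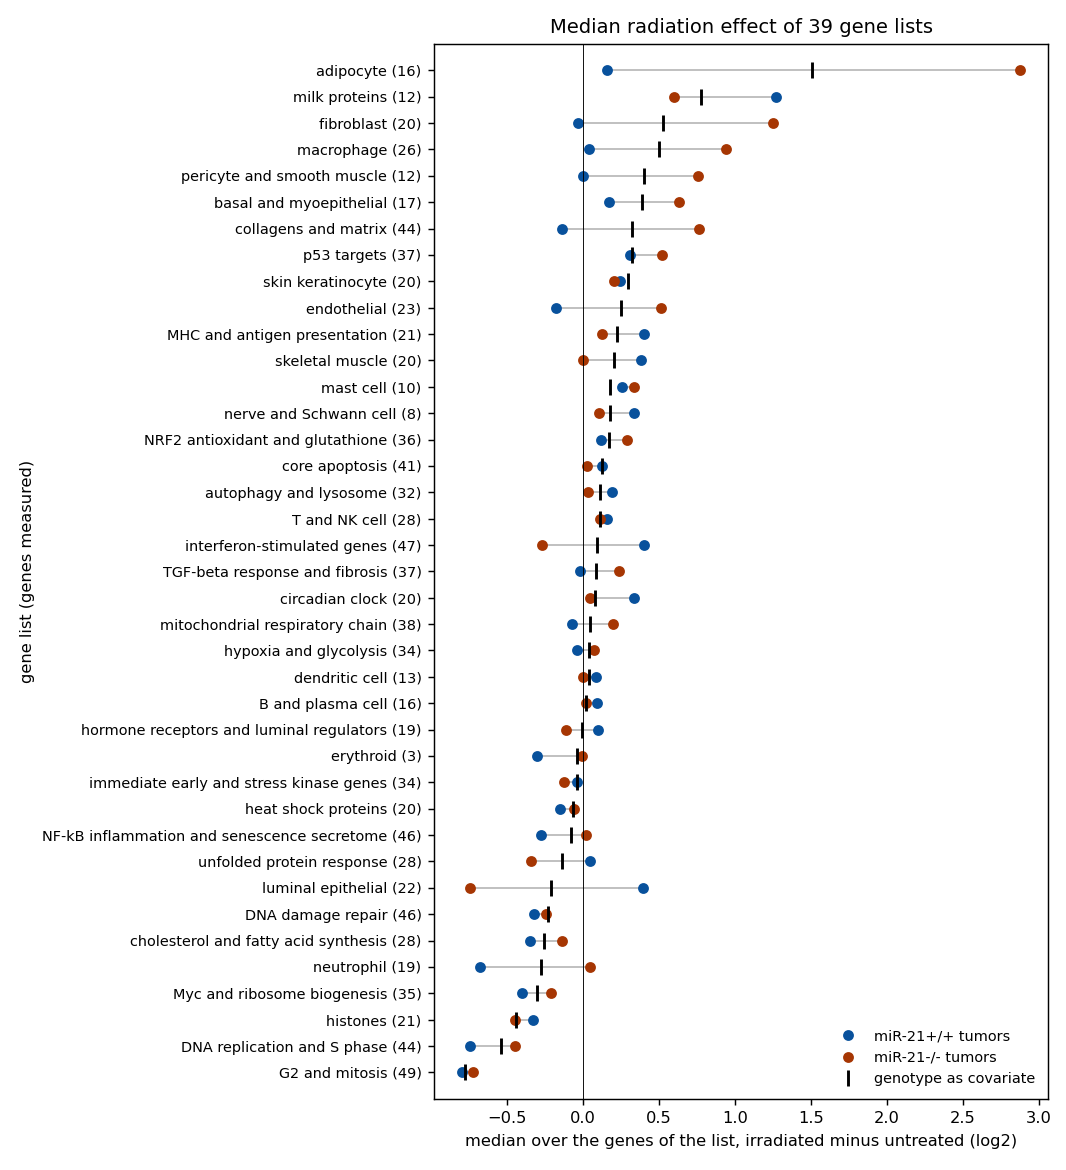
Median over the measured genes of each of 39 lists of the log2 difference between irradiated and untreated tumors, in the miR-21+/+ tumors, in the miR-21-/- tumors and with genotype as a covariate. The cell cycle lists lie below 0 in both genotypes (-0.80 and -0.73 for G2 and mitosis), and the adipocyte list lies apart in the miR-21-/- tumors, whose replicate 1 had the high adipocyte level.

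Of 20 measured genes of the circadian clock (median 0.08), 3 were separated on the higher side, against 1.97% of all genes, and 2 on the lower side, against 2.76%. Nr1d1, which encodes the repressor REV-ERB alpha, was at 5.45, 5.80, 5.56 and 5.57 in the untreated and at 6.48, 6.78, 8.80 and 5.99 in the irradiated tumors. Dbp, an output regulator of the clock, was at 5.60, 5.81, 5.86 and 5.85 against 6.55, 6.91, 8.37 and 6.46. Per3, a period gene, was at 5.44, 5.63, 5.94 and 5.83 against 6.65, 6.23, 7.59 and 6.45. The untreated arrays lay close together in all 3 genes, and irradiated miR-21-/- replicate 1 was the highest array each time.

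The log2 differences of Nr1d1, Dbp and Per3 were 1.42, 1.29 and 1.02, and 0.77, 0.85 and 0.77 without that replicate, and the brightest Per3 probe set gave 0.10. None passed the adjusted threshold, with adjusted p-values from limma of 0.403, 0.283 and 0.195, and of 0.0993, 0.0563 and 0.0752 without that replicate. On the lower side, Npas2, the partner that can replace CLOCK, was at 6.77, 5.88, 5.80 and 5.93 against 5.43, 5.18, 5.10 and 5.62 (-0.77, adjusted p = 0.306). Nfil3, a repressor at the sites that Dbp binds, was at 6.72, 6.23, 6.44 and 6.54 against 6.14, 5.72, 5.99 and 6.18 (-0.47, adjusted p = 0.357). Arntl and Clock, whose proteins drive the cycle, were not separated, with differences of -0.22 and -0.23, values looked up after the others were seen. The hour of collection is not given in the sources used here, so time of day and treatment cannot be told apart.

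**Figure D5:**
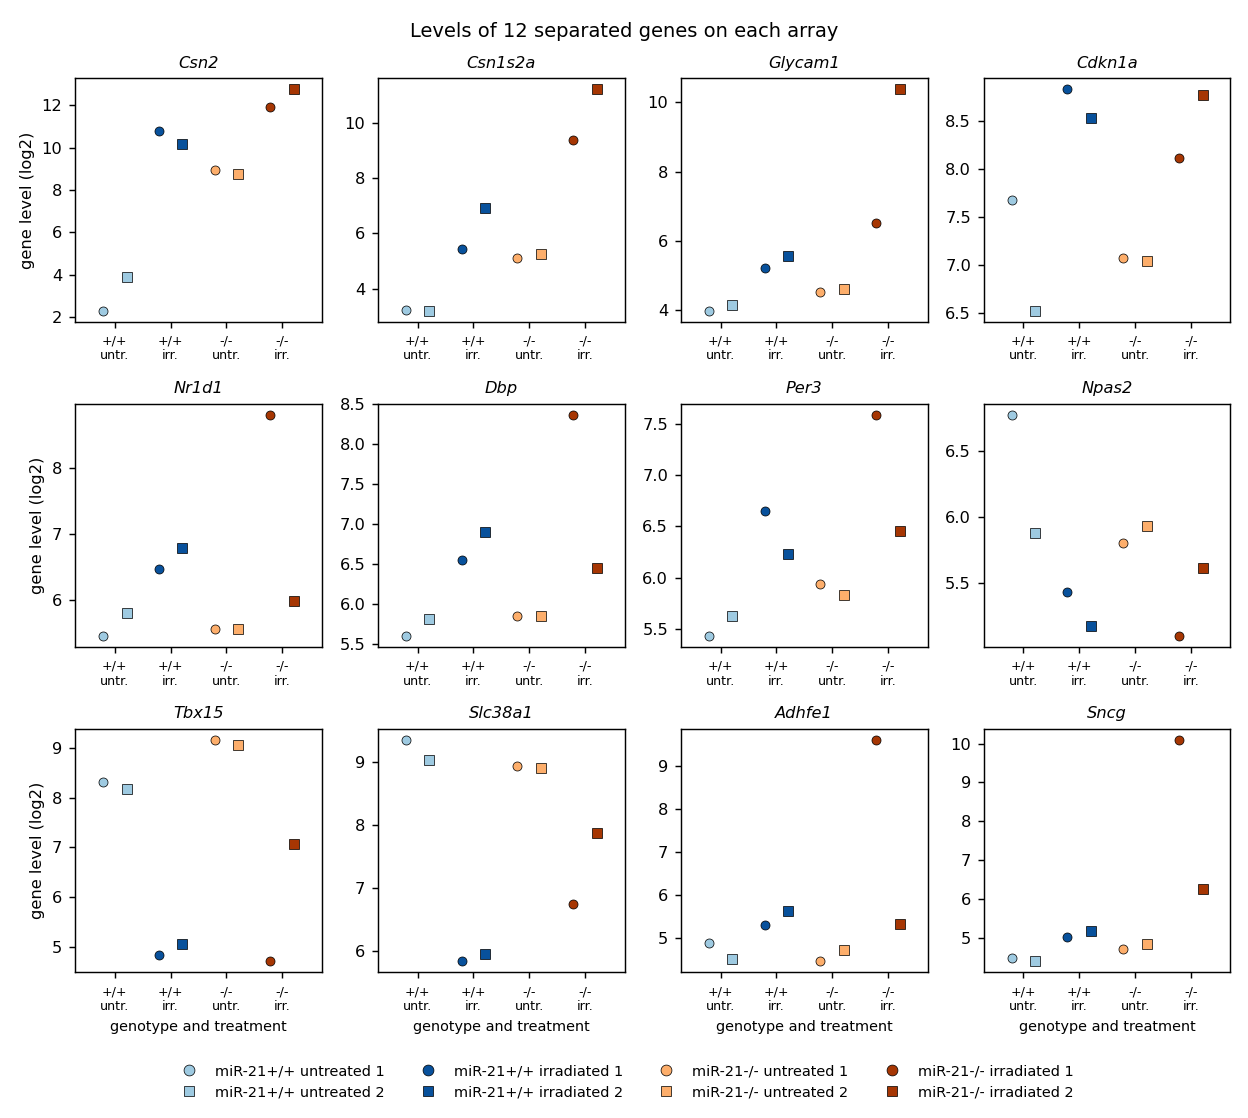
Level (log2) of 12 separated genes on each array, by genotype (+/+ or -/-) and treatment (untr., untreated; irr., irradiated), with a vertical scale of its own for each gene. All 12 genes are separated, so each is apart in both genotypes by the choice of genes. Adhfe1 and Sncg are highest on irradiated miR-21-/- replicate 1 (9.59 and 10.09), with the other irradiated arrays well below it.

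Some separated genes owed their size to that array. Adhfe1, a mitochondrial enzyme of hydroxybutyrate oxidation, was at 4.46 to 4.89 in the untreated tumors and at 5.30, 5.62, 9.59 and 5.32 in the irradiated tumors. Its difference was 1.81 with all arrays and 0.75 without irradiated miR-21-/- replicate 1. Sncg, gamma-synuclein, was at 4.39 to 4.85 against 5.02, 5.17, 10.09 and 6.25, with differences of 2.02 and 0.98. Lum, the matrix proteoglycan lumican, was at 5.16 to 5.42 against 5.49, 5.94, 8.46 and 5.69, with differences of 1.06 and 0.35. In the same array the mean level of 20 fibroblast markers was 8.55, against 6.22 to 6.86 on the other 7, and that of 16 adipocyte markers was 10.17. All 16 adipocyte markers had a positive difference, with a median of 1.51 that was 0.15 without this array, and the part of fat and stroma in Adhfe1, Sncg and Lum was not tested.

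In others, 1 genotype carried most of the difference. Klk10, a secreted protease, stood at 4.79, 4.57, 4.85 and 4.65 in the untreated and 10.40, 7.40, 5.58 and 5.16 in the irradiated tumors. The miR-21+/+ tumors were higher by 4.22 and the miR-21-/- tumors by 0.62, with an adjusted p of 0.50 for the difference (limma). Over both genotypes the difference was 2.42, and 1.46 without irradiated miR-21+/+ replicate 1. Atp2c2, a calcium pump of the secretory pathway, and Slitrk4, a neuronal membrane protein, differed by 3.14 and 2.78 in the miR-21+/+ and by 0.25 and 0.85 in the miR-21-/- tumors, each with an adjusted p of 0.12 for the difference. The brightest Slitrk4 probe set gave -0.03. Ly6a, the stem cell antigen Sca-1, was at 5.59, 7.42, 6.36 and 7.70 against 9.07, 9.09, 9.31 and 7.77, separated by 0.07 only. Zfp608, a zinc finger gene, was at 4.55, 4.37, 4.44 and 4.31 against 6.62, 5.81, 5.19 and 6.45 (1.6, adjusted p = 0.107), and both genotypes were higher by similar amounts, 1.76 and 1.45.

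The remaining lists had few separated members, where 1.97% of all genes were separated on the higher and 2.76% on the lower side. In cholesterol and fatty acid synthesis Dhcr7, which completes cholesterol synthesis, was lower (-0.83, limma adjusted p = 0.0885) and Me1, the malic enzyme that supplies NADPH, was higher (1.20, adjusted p = 0.264), and 8 of 28 genes had an unadjusted p under 0.05 on the lower side (6.13% of all genes). Without irradiated miR-21-/- replicate 1, that count was 14 of 28 (6.58% of all genes). Among 32 genes of autophagy and lysosomes, Gabarapl1, Ulk2 and the protease Ctsb were separated on the higher side (0.82, 0.63 and 0.49, with 1.97% of all genes separated there) and Atg5, part of the autophagosome conjugation system, on the lower side (-0.28, with 2.76%). None passed the adjusted threshold, with limma's adjusted p between 0.168 and 0.558. The chaperone genes Hsph1 and Dnajb1 were lower at -0.55 and -0.36, the early response genes Cyr61 and Nr4a2 at -1.04 and -0.95, and the matrix gene Eln, elastin, at -0.91, while the laminin gene Lama3 was higher at 0.70. No gene of the hypoxia, unfolded protein, respiratory chain or TGF-beta lists was separated (34, 28, 38 and 37 genes).

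At the edge of separation, Pcdhb6 and Nadk were the separated higher genes with the smallest gap, 0.00 after rounding, and their log2 differences were 0.58 and 0.47. Uhrf1bp1l and Smoc2 just missed it, with differences of 0.42 and 0.77. On the lower side Glt25d1 and Ddah1 were just separated at -0.25 and -1.03, and Olfr520 and Hjurp just missed it at -0.59 and -1.31. Genes on either side of the edge thus had differences of similar size.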

How the data were processed

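Total RNA of 8 tumors was hybridized to Affymetrix Mouse Gene 2.0 ST arrays. The deposited table holds exon-level probe sets with log2 signals, which the authors made by RMA (background correction, quantile normalization and median polish) in Affymetrix Expression Console 1.4, and the submitters' notes name Transcriptome Analysis Console 3.1. The annotation build is not given in the sources used here. Of 269751 probe sets, 233753 carried 1 gene symbol, and 5139 with several symbols and 30859 with none were left out. A gene's level was the mean of its probe sets, with a median of 8 and with 1 probe set for 2319 of 23152 genes. Arrays have no read depth, and their number limits the precision.

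limma 3.58.1 (R 4.3.3) was fitted with genotype and treatment (5 residual degrees of freedom, prior 3.39), with Benjamini-Hochberg adjustment over all genes. A second fit, with a mean for each of the 4 groups (4 residual degrees of freedom, prior 3.54), gave the effect in each genotype and their difference. The pipeline was tested on simulated data. The members, the 39 gene lists and the rule for named genes were chosen with earlier results of these data known. Named genes were the 15 highest and 15 lowest separated genes above the median level, without predicted genes, every gene past the adjusted threshold, up to 3 separated genes per biology list and direction, the 2 genes on either side of the edge of separation, and Fas, Fasl, Casp8, Casp9 and Vmp1. Separation within each genotype and the values without irradiated miR-21-/- replicate 1 were added after seeing the data. Promoters were taken from RefSeq (GRCm38.p6), and 23122 genes matched a RefSeq gene by symbol or older symbol. Python 3.11.15, pandas 2.3.3, scipy 1.17.1 and matplotlib 3.10.9 were used.

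The labels name no pairing by replicate number, and the main fit used none. Same-numbered arrays had deviations from their group means that correlated between -0.133 and 0.0418 over 6 pairs of groups. With so few arrays, these correlations cannot exclude that same-numbered samples share a batch. The other settings changed the model (1 mean per group, no genotype term, a variance trend with robust estimation, array weights or a replicate block), the normalization (quantile, or centring arrays on their medians), the filter (only genes with a level above the median) or the gene summary (the probe sets' median, or each probe set by itself with the brightest one standing for the gene), or left out each array in turn. For the brightest probe sets, p-values were adjusted over all 233753 probe sets, not over the 23152 genes. With 1 array left in a group, it was assumed to vary like the others.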

Additional observations from a re-analysis of the deposited data

Results flagged for a closer look

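In 252 sets of 4 arrays, 1 set for the irradiated and 1 for the untreated tumors of each named gene and list, 23 held an array whose distance to the nearest other array, as a share of the range, exceeded Dixon's critical value. Chance flags about 1 in 20 groups of 4 independent values from a single normal population. These sets pool both genotypes, and many of the genes were chosen by how the same arrays fall. The count of 23 can therefore not be set against that rate. Among the irradiated tumors, replicate 1 of the miR-21-/- tumors was farthest out for Adhfe1 (0.924), Lum (0.847), Gabarapl1 (0.844), the adipocyte list (0.896), all high, and Atg5 (0.906), low. Replicate 2 of the miR-21-/- tumors was farthest out for Tbx15 (0.855), Trpm3 (0.945) and Gpr110 (0.859), where it was the least lowered array, and for Ly6a (0.841), where it was the lowest. In the irradiated miR-21+/+ tumors, replicate 1 was lowest for Parp1 (0.919) and Smoc2 (0.830), and replicate 2 was highest for Pcdhb6 (0.906) and the histone list (0.892).

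Among the untreated tumors, replicate 1 of the miR-21+/+ tumors was highest for Hist1h2bh (0.951), Cxcl1 (0.922), Hsph1 (0.929), Npas2 (0.868) and the neutrophil list (0.954) and lowest for H2-Ab1 (0.934). Replicate 2 of the miR-21+/+ tumors was lowest for Rab27a (0.879) and highest for the fibroblast list (0.924). Replicate 2 of the miR-21-/- tumors was lowest for Lum (0.866) and Nolc1 (0.913).

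Npy, the neuropeptide Y gene, was the 1 gene whose radiation effect differed between the genotypes at an adjusted p of 0.05. It was at 5.47 and 5.40 in untreated and 8.10 and 7.70 in irradiated miR-21+/+ tumors, and at 8.30 and 8.46 in untreated and 5.79 and 6.36 in irradiated miR-21-/- tumors. The effect in the miR-21-/- minus that in the miR-21+/+ tumors was -4.77 on the log2 scale (limma, adjusted p = 0.0257), and the mean of both effects was 0.08.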

How the results depend on the processing

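The number of genes past the adjusted threshold depended on the model. Separation uses no model, so its counts could change only with the normalization, the filter, the gene summary or the arrays. Against 7 higher and 7 lower genes, 31 and 40 passed with 1 mean per group, 35 and 47 with array weights, 18 and 33 among the genes above the median level, and 3 and 4 without the genotype term. Centring on the median gave 12 lower genes. With every probe set tested and the p-values adjusted over all 233753 of them, 0 and 0 passed (limma). Of the genes' brightest probe sets, 1115 had an unadjusted p under 0.05, and 183 genes were lower at the study's thresholds. With a replicate block 1 higher and 2 lower genes passed. For the difference between genotypes, against 1 gene, a variance trend with robust estimation gave 5, array weights 11, every probe set tested 0 (831 at an unadjusted p under 0.05) and the replicate block 0 (1783 at an unadjusted p under 0.05). Separated higher genes numbered 262 among genes above the median level, and within each genotype 944 genes were higher and 1536 lower in both (4.08% and 6.63%). Leaving out 1 array at a time gave 0 to 68 higher and 0 to 60 lower genes at the adjusted threshold, 107 to 320 and 99 to 175 at the study's thresholds, 679 to 902 and 924 to 1261 separated genes, and 0 to 2523 genes for the difference between genotypes. The highest of these last counts came without irradiated miR-21-/- replicate 2. All 14 genes passed again with 1 mean per group, the variance trend, quantile normalization, centring and array weights. Of the 14, 13 passed among the genes above the median level and 8 with the median of the probe sets. Without the genotype term 7 of them passed, and with the replicate block 3. Directions turned for Vmp1 with the median of the probe sets (0.08) and, in the brightest probe set, for Slitrk4 (-0.03), Trpm3 (0.40) and Nr4a2 (0.08). The causes were not tested. With 2 arrays per group, dim genes and small differences are the least certain.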

Other observations

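The separated genes were not spread evenly over the chromosomes. On chromosome 3, 61 of 1090 genes (5.60%) were separated on the lower side, against 2.76% of all genes and 1.58% to 3.52% on the other 19 chromosomes examined. The median difference of the chromosome 3 genes from the mean of the untreated tumors of their genotype was -0.15 and -0.13 in the irradiated miR-21-/- tumors, where all genes gave -0.06 and -0.02, and 0.00 and 0.02 in the irradiated miR-21+/+ tumors. On the higher side, chromosome 4 had the largest share, with 40 of 1345 genes (2.97%, against 1.97% of all genes). These shares were looked up after the data were seen and were not tested.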
